A study of Glycine max with 4 samples.

Results

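Proton pumps, pyrophosphatases and the carriers and channels of potassium and other cations were examined in soybean leaves after short-term phosphate (Pi) deprivation. The members were the deposited loci whose gene description holds one of a set of words (potassium, K+, cation/H+, cation exchanger, H(+)-ATPase, vacuolar ATP synthase, V-type, vacuolar proton, pyrophosphatase, sodium hydrogen or Na+/H+). Loci merged from several genes were left out. The rule read only the descriptions and no measured value, and it found 149 of the 39505 loci in the table. Every member is 1 annotated gene, so 149 different genes are described.

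The samples were 2 libraries from Pi-deprived leaves (PDL-1 and PDL-2, 24 h at 0 μM KH2PO4) and 2 libraries from Pi-sufficient leaves (PSL-1 and PSL-2, 24 h at 500 μM KH2PO4). All came from the first trifoliate true leaves of cultivar Williams 82 grown in hydroponics, and each library pooled leaves of several plants. In the Pi-deprived solution K2SO4 stood in for KH2PO4 so that potassium was still supplied, hence sulfate supply differed between the groups along with Pi. The question asked of these genes is whether leaf transcripts for proton and potassium transport differed within a day of Pi removal.

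Plant membranes are energized mainly by proton pumps. The plasma membrane H+-ATPase pushes protons out of the cell, and the V-type ATPase and the H+-pyrophosphatase push them into vacuoles and other endomembrane compartments, the first using ATP and the second using pyrophosphate. Exchangers spend the proton gradient to move calcium, sodium or potassium, while potassium enters and leaves cells through carriers of the KUP/HAK/KT family and through voltage-gated and calcium-activated channels. Both ATP and pyrophosphate depend on Pi for their turnover.

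By the words of their descriptions the 149 genes fell into 20 V-type ATPase subunits, 19 plasma membrane H+-ATPases, 8 H+-pyrophosphatases, 4 other pyrophosphatases, 26 cation exchangers, 7 sodium/proton exchangers, 12 K+ efflux antiporters, 35 K+ uptake transporters and 18 K+ channels. The deposited annotation, which the rule did not use, ran along the same lines. The KEGG pathway of oxidative phosphorylation was attached to 43 members, of which 20 were V-type ATPase subunits, 18 plasma membrane H+-ATPases and 5 H+-pyrophosphatases. The GO term for solute:proton antiporter activity was attached to 30 members, including all 12 K+ efflux antiporters and all 7 sodium/proton exchangers. All 8 H+-pyrophosphatases carried the GO term for hydrogen-translocating pyrophosphatase activity, and 26 of the 35 K+ uptake transporters that for potassium ion transmembrane transporter activity.

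Levels are given as FPKM, fragment numbers scaled to transcript length and to library size, which can be compared between genes. The columns used hold no read counts, and counting error per gene is therefore unknown. Between 137 and 143 members were listed above 0 in a library, and 131 were so in all 4 libraries. Over all loci, 35517 to 36536 were above 0 in a library. The 10 most abundant loci of a library held 24.8% to 31.1% of its summed FPKM. Reads that fitted several places were kept by the aligner, so levels of near-identical soybean paralogs may be shared between copies.

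Most members differed little between the groups. Of the 149 members, 124 reached a mean of 0.3 FPKM over the 4 libraries and were tested with limma on log2(FPKM + 0.1), a scale that understates the change of low genes. A gene was called where the log2 fold change was at least 1 or at most −1 at an unadjusted p of at most 0.05, the thresholds of the study. The study set them on Cuffdiff results, so its calls can differ from those of limma. Of these 124 genes, 0 were called higher and 1 was called lower in PDL (0.806%), while 2.03% of the 32686 loci tested were called, 1.14% higher and 0.887% lower. No member had a limma adjusted p under 0.05 (smallest 0.471), against 0.0581% of all loci tested, and 8 members (6.45%) had an unadjusted p under 0.05, against 8.93% of all loci tested. The median log2 fold change was 0.01 over the members and −0.01 over all loci tested. In RNA of whole leaves, fewer cells of a type and less RNA per cell cannot be told apart.

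The 4 libraries bounded most of these differences fairly tightly. For 90 of the 124 members the 95% interval of the log2 fold change lay wholly between −1 and 1, against 19888 of the 32686 loci. The absolute log2 fold change was under 0.5 in 108 members (87.1%), against 79.3% of all loci tested. Replicate libraries differed by a median SD of 0.15 (log2) in the members and 0.20 in all loci tested. Both PDL libraries lay above or below both PSL libraries for 57 of the 124 members (46%), against 41.3% of all loci tested, with 30 higher and 27 lower in PDL. With 2 libraries against 2, an exact permutation test of a single gene cannot go below p = 0.333. The p-values rest on the spread between these biological replicates, which limma draws for each gene toward a trend over all loci tested.

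**Figure D1:**
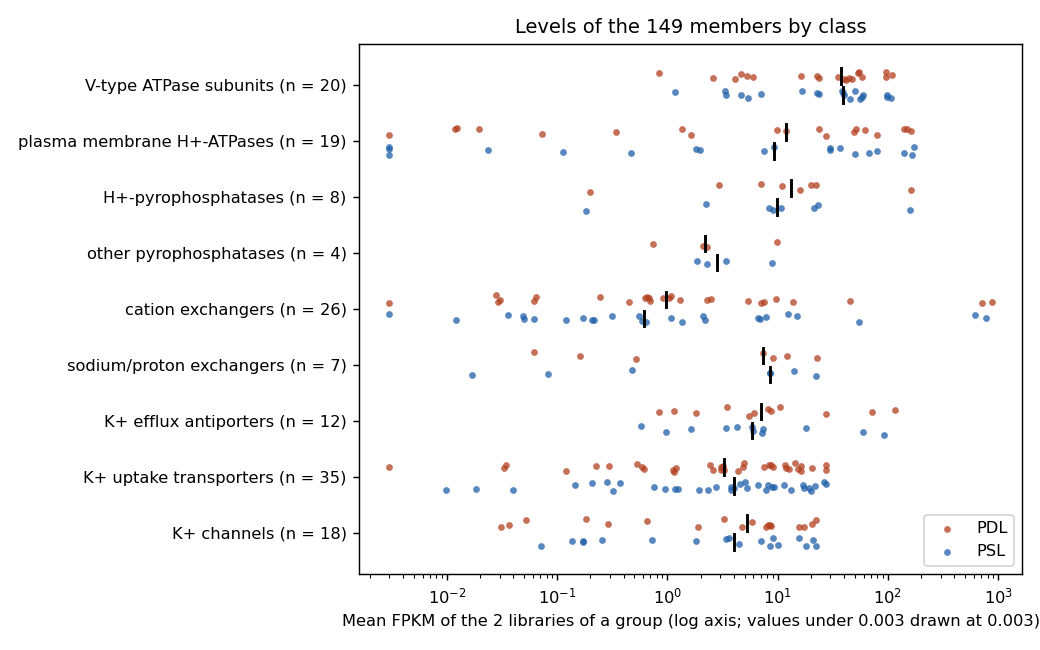
Mean FPKM of each of the 149 members in PDL (upper, red points) and PSL (lower, blue points) by class, on a log axis, with the class median as a black bar. V-type ATPase subunits range from 1.01 to 108 FPKM in their mean over all libraries (median 38.4), while cation exchangers spread from 0.00604 to 829.9 FPKM.

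Levels spanned several orders of magnitude. The summed FPKM of the members was 3948 and 4377 FPKM in PDL, against 3938 and 3983 FPKM in PSL. Plasma membrane H+-ATPases made up 17.8% to 20.4% of that sum in a library, V-type ATPase subunits 17.2% to 20.4%, and the K+ channels 2.96% to 3.33%. The cation exchanger 3 genes Gm07g149600 and Gm18g200500 alone held 34.8% and 41.3% of it in PDL, against 36.8% and 33.6% in PSL. At the other end, 42 members had a mean under 1 FPKM and 25 a mean under 0.3 FPKM.

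**Figure D2:**
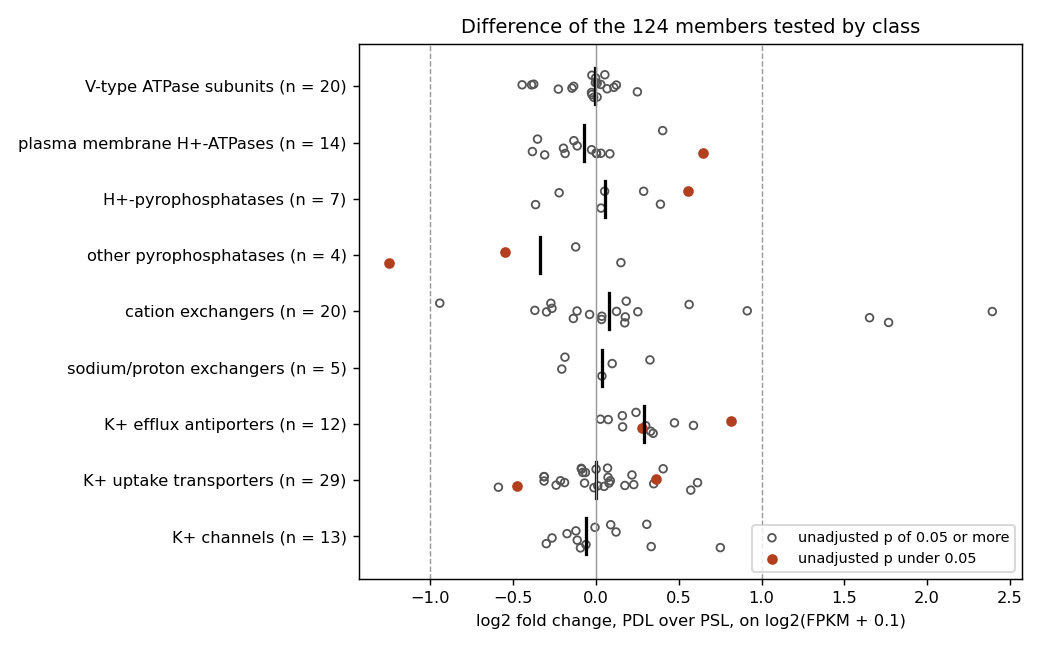
Log2 fold change of PDL over PSL for the 124 members tested, by class, with the class median as a black bar and dashed lines at −1 and 1. Filled points have an unadjusted limma p under 0.05, and the lowest of them, Gm18g048400 at −1.25, is the 1 member past both thresholds. Of the open points, 3 cation exchanger genes lie above 1, all with a PSL mean under 0.3 FPKM.

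V-type ATPase subunits had the smallest median absolute log2 fold change of the 9 classes, 0.06. All 20 genes were tested, 0 were called in limma (0 also had an unadjusted p under 0.05), and all 20 had an absolute log2 fold change under 0.5, with a median of −0.01 and a range of −0.45 to 0.25. For 17 of the 20 the 95% interval lay between −1 and 1. The summed level of the class was 769 and 754 FPKM in PDL, against 736 and 811 FPKM in PSL, so the groups overlapped. This pump is built from a cytosolic V1 sector that splits ATP and a membrane V0 sector that carries the protons.

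Genes for subunit A, the catalytic subunit of V1, summed to 119 and 117 FPKM in PDL, against 118 and 121 FPKM in PSL. The more abundant of them, Gm08g224400 (chromosome 8, bases 18196855 to 18202274 of Gmax2.0), had 95.5 and 95.5 FPKM in PDL, against 96 and 98.3 FPKM in PSL, with a difference of −0.02 on the log2 scale (SE 0.09, limma adjusted p = 0.951) and a 95% interval of −0.28 to 0.23. The E1 gene Gm08g020300, for a stalk subunit, had 109.8 and 109 FPKM in PDL, against 96.9 and 115 FPKM in PSL. The most abundant proteolipid gene of the V0 ring, Gm06g007400, had 104 and 88.9 FPKM in PDL, against 94.7 and 101 FPKM in PSL. In the E1 and proteolipid genes the groups overlapped.

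Genes for subunit C, named DET3 after an Arabidopsis mutant with short hypocotyls in the dark, were 4 in number. Gm16g050200 had 54.6 and 53.9 FPKM in PDL, against 46.6 and 53.2 FPKM in PSL. At a low level, Gm02g065500 had 3.92 and 4.2 FPKM in PDL, against 3.37 and 3.42 FPKM in PSL. Their log2 fold changes were 0.12 and 0.25 (SE 0.12 and 0.15). Another low copy, Gm16g146600, lay the other way with 2.11 and 3.04 FPKM in PDL, against 3.13 and 3.58 FPKM in PSL. In Gm19g101000 the groups overlapped, with 38.2 and 32.6 FPKM in PDL, against 35.7 and 42.1 FPKM in PSL (log2 fold change −0.13). The 4 genes together summed to 98.8 and 93.8 FPKM in PDL, against 88.9 and 102 FPKM in PSL.

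The 2 genes for subunit D, part of the rotor, overlapped between the groups, with 60.7 and 56.7 FPKM in PDL, against 51.3 and 64.4 FPKM in PSL, for Gm08g218500 and 56.6 and 50.2 FPKM in PDL, against 53.7 and 64.7 FPKM in PSL, for Gm07g023400. Subunit H, which holds the free V1 sector inactive in yeast, was represented under the rule by Gm16g142600 only. This gene had 41.3 and 42.1 FPKM in PDL, against 38.7 and 38.6 FPKM in PSL, with PDL above PSL by 0.11 on the log2 scale (SE 0.10). A merged locus outside the rule that also carries a subunit H description lay the other way, at −0.09.

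The large membrane subunit a is present in forms that place the pump, in Arabidopsis at the trans-Golgi network (A1) or the vacuole (A3). The 3 genes described as vacuolar proton ATPase A1 summed to 15.7 and 16.2 FPKM in PDL, against 16.5 and 17.5 FPKM in PSL, and the 3 described as A3 to 39.3 and 42.1 FPKM in PDL, against 39.5 and 43 FPKM in PSL. Within A3, Gm06g027600 was the lowest V-type gene, with 0.712 and 0.971 FPKM in PDL, against 1.25 and 1.1 FPKM in PSL, and it had the most negative value of the class, a difference of −0.45 on the log2 scale (SE 0.33, limma adjusted p = 0.713). A single proteolipid gene, Gm12g036800, stood lower in 1 library, with 34.5 and 53.7 FPKM in PDL, against 52.9 and 59 FPKM in PSL.

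Further V-ATPase genes carry descriptions that the rule does not match (subunits named as V0, V1 or F0/V0 complex). All 13 of them were tested, 0 were called in limma, and their median log2 fold change was −0.08. The 4 genes for subunit B of V1 summed to 170.5 and 163 FPKM in PDL, against 178 and 179 FPKM in PSL. The widest values were in the small V0 subunit E genes, such as Gm14g017500 with 32 and 13.8 FPKM in PDL, against 31.4 and 38.4 FPKM in PSL.

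Plasma membrane H+-ATPase genes were also close between the groups. Of the 19 genes, 14 were tested, 0 were called and 1 had an unadjusted p under 0.05, with a median log2 fold change of −0.07. The class summed to 757 and 779 FPKM in PDL, against 767 and 813 FPKM in PSL. Isoforms described as H(+)-ATPase 11, 5 and 2 accounted for nearly all of it.

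The 3 most abundant pump genes did not separate the groups in a single direction. Gm06g189900 (H(+)-ATPase 11) had 158 and 165 FPKM in PDL, against 157 and 172 FPKM in PSL. Gm05g030700 (H(+)-ATPase 11) had 139 and 141 FPKM in PDL, against 127 and 154 FPKM in PSL, with a 95% interval of −0.36 to 0.36. Gm14g134100 (H(+)-ATPase 5) was below PSL in both PDL libraries, with 152 and 147 FPKM in PDL, against 161 and 183 FPKM in PSL, and a difference of −0.20 on the log2 scale (SE 0.12, limma adjusted p = 0.670).

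Gm04g174800, another H(+)-ATPase 11 gene (chromosome 4, bases 43654267 to 43660846 of Gmax2.0), was higher in both PDL libraries without passing the thresholds. It had 11.3 and 12.3 FPKM in PDL, against 7.4 and 7.6 FPKM in PSL, with a difference of 0.65 on the log2 scale (SE 0.12, limma adjusted p = 0.471), an unadjusted p of 0.00528 and a 95% interval of 0.31 to 0.98. Its replicates differed by less than the groups did. Gm17g096100, of the same description, had 42.6 and 55.9 FPKM in PDL, against 40.6 and 33.5 FPKM in PSL, again with no overlap. On the other side, Gm15g162600 (H(+)-ATPase 2) had 19.4 and 27.6 FPKM in PDL, against 30.3 and 28.9 FPKM in PSL, and Gm13g065400 (H(+)-ATPase 11) had 1.45 and 1.24 FPKM in PDL, against 1.45 and 2.2 FPKM in PSL, with log2 fold changes of −0.35 and −0.38 (SE 0.20 and 0.30).

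Of the other abundant isoforms, Gm17g199200 (H(+)-ATPase 5) was below PSL in both PDL libraries, with 26.5 and 27.9 FPKM in PDL, against 31.4 and 28.4 FPKM in PSL, and 3 more overlapped between the groups. Gm06g076100 (H(+)-ATPase 5) had 80.4 and 78.1 FPKM in PDL, against 77.5 and 80.9 FPKM in PSL, and Gm04g075100 of the same description had 52.7 and 49.2 FPKM in PDL, against 49.4 and 50.4 FPKM in PSL. Gm09g056300 (H(+)-ATPase 2) had 59.8 and 62.9 FPKM in PDL, against 72.7 and 60.6 FPKM in PSL, where PSL-1 was the highest library. By isoform, the genes of H(+)-ATPase 11 summed to 353 and 376 FPKM in PDL, against 334 and 369.7 FPKM in PSL, those of H(+)-ATPase 5 to 312 and 302 FPKM in PDL, against 319 and 343 FPKM in PSL, and those of H(+)-ATPase 2 to 91.9 and 101 FPKM in PDL, against 114 and 101 FPKM in PSL.

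The 5 pump genes that were not tested were at most 0.224 FPKM in any library. They include the genes described as H(+)-ATPase 8, H(+)-ATPase 9 and autoinhibited H(+)-ATPase isoform 10, which in Arabidopsis belong to pollen (8 and 9) and the seed coat (10). Each of these 3 was above 0 in 1 library only, at a level of at most 0.0392 FPKM.

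General regulatory factors are 14-3-3 proteins, which bind the phosphorylated end of the plasma membrane H+-ATPase and switch it on. Of 14 such genes, 13 were tested and 0 were called in limma, while 2 had an unadjusted p under 0.05, against 8.93% of all loci tested. Their median log2 fold change was −0.18, with 1 gene wholly higher and 7 genes wholly lower in PDL, against 20.2% and 21.1% of all loci tested. Both of the 2 genes were described as general regulatory factor 12. Gm01g058000 had 16.8 and 14 FPKM in PDL, against 24.9 and 20 FPKM in PSL, and Gm02g115900 had 17.1 and 17.1 FPKM in PDL, against 24.3 and 22.5 FPKM in PSL, with log2 fold changes of −0.54 and −0.45 (SE 0.17 and 0.11). The most abundant 14-3-3 gene, Gm14g176900, had 750.0 and 734 FPKM in PDL, against 726 and 761 FPKM in PSL.

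H+-pyrophosphatase genes lay on both sides of PSL by small amounts. Of the 8 genes, 7 were tested and 0 were called, with a median log2 fold change of 0.05. An unadjusted p under 0.05 was found in 1 of the 7, against 8.93% of all loci tested. The class summed to 230.2 and 255 FPKM in PDL, against 239 and 231 FPKM in PSL. Most of it came from Gm13g162800 (chromosome 13, bases 27818075 to 27822296 of Gmax2.0), with 155 and 171 FPKM in PDL, against 164 and 155 FPKM in PSL, and a 95% interval of −0.27 to 0.33.

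In 4 of the 7 genes tested the groups did not overlap, against 41.3% of all loci tested. Gm08g214300 (chromosome 8, bases 17314293 to 17319070 of Gmax2.0) had 15.9 and 15.6 FPKM in PDL, against 10.5 and 10.9 FPKM in PSL, with a difference of 0.55 on the log2 scale (SE 0.11, limma adjusted p = 0.471) and an unadjusted p of 0.00641. Gm07g028500 lay on the same side, with 10.1 and 11.5 FPKM in PDL, against 8.81 and 7.69 FPKM in PSL. Gm08g225500 and Gm07g001500 lay lower in both PDL libraries. The values of Gm08g225500 were 19.9 and 20.02 FPKM in PDL, against 23.7 and 22.9 FPKM in PSL, and those of Gm07g001500 were 6.38 and 7.78 FPKM in PDL, against 9.5 and 8.72 FPKM in PSL. Gm17g108500 overlapped with 20.4 and 24.1 FPKM in PDL, against 19.5 and 23.3 FPKM in PSL.

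The 4 other pyrophosphatases act on nucleotides and are no proton pumps. They entered by the word pyrophosphatase, and they included the 1 called member. Gm18g048400, described as dUTP-pyrophosphatase-like 1 (chromosome 18, bases 4179376 to 4180024 of Gmax2.0), fell in PDL. The enzyme removes dUTP and leaves dUMP, the precursor of thymidylate. It had 0.565 and 0.914 FPKM in PDL, against 2.06 and 1.66 FPKM in PSL, with a difference of −1.25 on the log2 scale (SE 0.35, limma adjusted p = 0.525), an unadjusted p of 0.0217 and a 95% interval of −2.20 to −0.29.

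The call on Gm18g048400 was lost with a pseudocount of 1 (log2 fold change −0.72) and without 1 of 3 libraries, at −0.94 without PDL-1, −1.10 without PSL-1 and −1.40 without PSL-2 (unadjusted limma p 0.0702, 0.106 and 0.0672). The other dUTP-pyrophosphatase-like gene, Gm14g207800, overlapped with 2.78 and 1.46 FPKM in PDL, against 2.74 and 1.77 FPKM in PSL. Of the genes for inosine triphosphate pyrophosphatase, which clears damaged purine nucleotides, Gm10g125100 was lower in both PDL libraries with 2.53 and 2.04 FPKM in PDL, against 3.19 and 3.57 FPKM in PSL, a difference of −0.55 on the log2 scale (SE 0.20, limma adjusted p = 0.560). Its counterpart Gm20g077400 had 10.9 and 8.89 FPKM in PDL, against 8.29 and 9.44 FPKM in PSL.

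**Figure D3:**
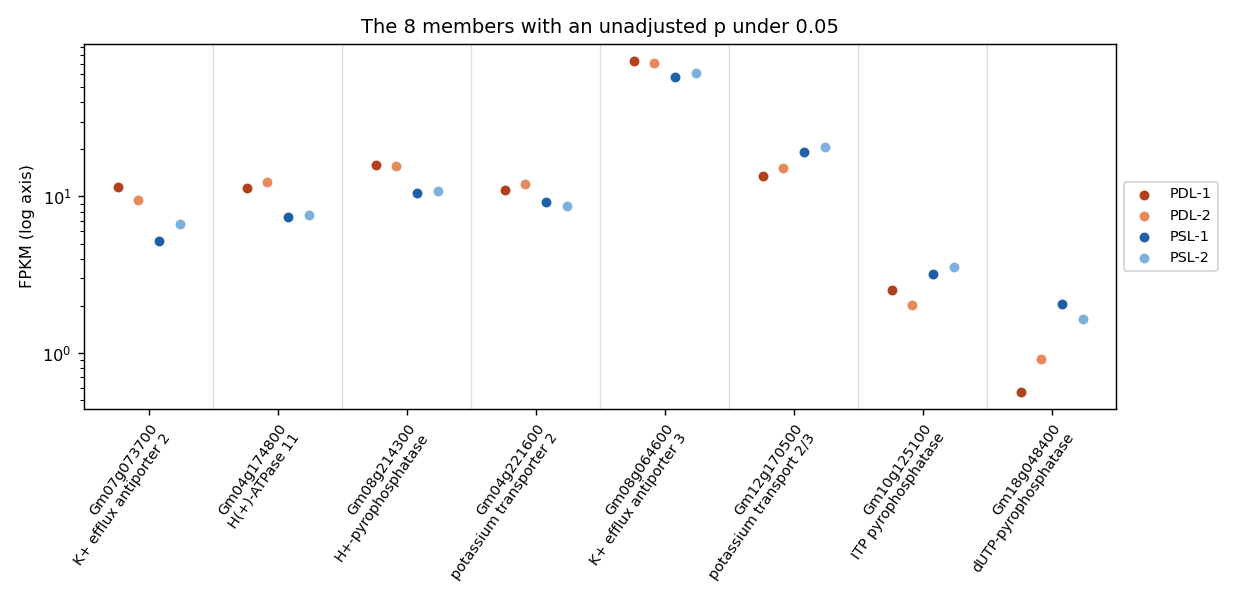
FPKM in each library, on a log axis, of the 8 members with an unadjusted limma p under 0.05, in order of log2 fold change. In each of the 8 genes both PDL libraries (red) lie on 1 side of both PSL libraries (blue), and only Gm18g048400 is past a log2 fold change of 1 in size.

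Cation exchangers held both the most abundant and some of the rarest transcripts. Of the 26 genes, 20 were tested and 0 were called in limma (0 had an unadjusted p under 0.05), with a median log2 fold change of 0.08 and a range of −0.94 to 2.39. Those described as cation exchanger (CAX), a name whose best known holders load calcium into the vacuole against protons, were 15, of which 13 were tested. Those described as cation/H+ exchanger (CHX), a separate family whose known members handle potassium and pH in endomembranes, were 11, of which 7 were tested.

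The highest levels of all members were found among the cation exchanger 3 genes, but not in all of them. Gm03g058300 and Gm01g122800 had means of only 0.381 and 0.0384 FPKM. Gm07g149600 (chromosome 7, bases 17970201 to 17974504 of Gmax2.0) had 762 and 1007 FPKM in PDL, against 811 and 739.7 FPKM in PSL, and Gm18g200500 (chromosome 18, bases 48015707 to 48020871 of Gmax2.0) had 612 and 801 FPKM in PDL, against 637 and 597 FPKM in PSL. In both genes PDL-2 was the highest library and PDL-1 lay among the PSL libraries. Their log2 fold changes were 0.18 and 0.18 (SE 0.18 and 0.17), with 95% intervals of −0.31 to 0.66 and −0.28 to 0.65. The cation exchanger 2 genes had lower levels, with 11.3 and 8.02 FPKM in PDL, against 11.5 and 13.2 FPKM in PSL, for Gm05g102600 and 14.9 and 12.3 FPKM in PDL, against 14.1 and 15.8 FPKM in PSL, for Gm13g372100.

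Further exchangers were of middle or low level. Gm03g239500 (cation exchanger 11) was below PSL in both PDL libraries, with 5.35 and 5.41 FPKM in PDL, against 6.01 and 7.34 FPKM in PSL. The 5 genes of cation exchanger 5 summed to 18.6 and 13.4 FPKM in PDL, against 16.6 and 15.5 FPKM in PSL, led by Gm07g026800 with 9.64 and 5.44 FPKM in PDL, against 7.37 and 8.36 FPKM in PSL, where the PDL replicates spanned both PSL values.

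The cation exchanger 1 gene Gm14g193400 had the largest fold change of the class, and PDL-1 held most of the signal of all 3 cation exchanger 1 genes. Their PSL means were all under 0.3 FPKM, so they passed the filter through PDL. Gm14g193400 had 1.63 and 0.447 FPKM in PDL, against 0.242 FPKM in PSL-1 and a listed 0 in PSL-2, with a difference of 2.39 on the log2 scale (SE 1.04, limma adjusted p = 0.597). The other genes, Gm02g226500 and Gm18g063200, were chosen for description after their values were seen. Gm02g226500 had 1.83 and 0.323 FPKM in PDL, against 0.0886 and 0.34 FPKM in PSL, and Gm18g063200 had 1.17 and 0.136 FPKM in PDL, against 0.302 and 0.11 FPKM in PSL. The 3 genes summed to 4.63 and 0.906 FPKM in PDL, against 0.633 and 0.45 FPKM in PSL. Their median log2 fold change was 1.65, but 0.56 without PDL-1, when 2 of the 3 stayed positive and 1 was at −0.30. It was 2.75 without PDL-2 and 0.68 with a pseudocount of 1. None of the 3 was called by limma in the fit of all 4 libraries without a block, while Gm14g193400 was called with a replicate block (unadjusted limma p 0.0479). This does not cover the fits that left out 1 library. The paper, which used Cuffdiff at the same thresholds, lists Gm02g226500 among its genes higher in PDL.

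Cation/H+ exchanger 20, which in Arabidopsis acts in endomembranes of guard cells, was represented by 3 genes. Gm13g131200 (chromosome 13, bases 24391145 to 24394645 of Gmax2.0) was by far the most abundant CHX gene, with 44.5 and 45.5 FPKM in PDL, against 48.4 and 61 FPKM in PSL, and a difference of −0.27 on the log2 scale (SE 0.15, limma adjusted p = 0.655). The neighbours Gm03g171500 and Gm03g171600, 5243 bases apart on chromosome 3, were both low and lay in opposite directions. Gm03g171500 had 0.199 and 0.286 FPKM in PDL, against 0.519 and 0.589 FPKM in PSL, and Gm03g171600 had 0.69 and 0.55 FPKM in PDL, against 0.343 FPKM in PSL-1 and a listed 0 in PSL-2. Their log2 fold changes of −0.94 and 1.77 had SE of 0.58 and 1.0, and neither passed. The PDL mean of Gm03g171500 and the PSL mean of Gm03g171600 were under 0.3 FPKM. Each gene thus passed the filter through the group where it was higher, and no direction can be read from them. Reads of adjacent copies may be shared between them.

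Other CHX genes gave small values. The cation/H+ exchanger 19 genes were above PSL in both PDL libraries, with 2.44 and 2.47 FPKM in PDL, against 2.25 and 2.08 FPKM in PSL, for Gm17g043400 and 2.25 and 2.32 FPKM in PDL, against 2.01 and 2.18 FPKM in PSL, for Gm13g116400. Their log2 fold changes were 0.17 and 0.12 (SE 0.18 and 0.19). The cation/H+ exchanger 18 pair overlapped, at 2.33 and 2.05 FPKM in PDL, against 2.21 and 2.64 FPKM in PSL summed.

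A further 10 genes are described as cation/hydrogen exchangers, in words that the rule does not match. None reached 0.3 FPKM, and their summed level was 0.234 and 0.161 FPKM in PDL, against 0.0441 and 0.136 FPKM in PSL. The members described as cation/H+ exchanger 3, 4 and 24 were at most 0.0872 FPKM in any library.

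**Figure D4:**
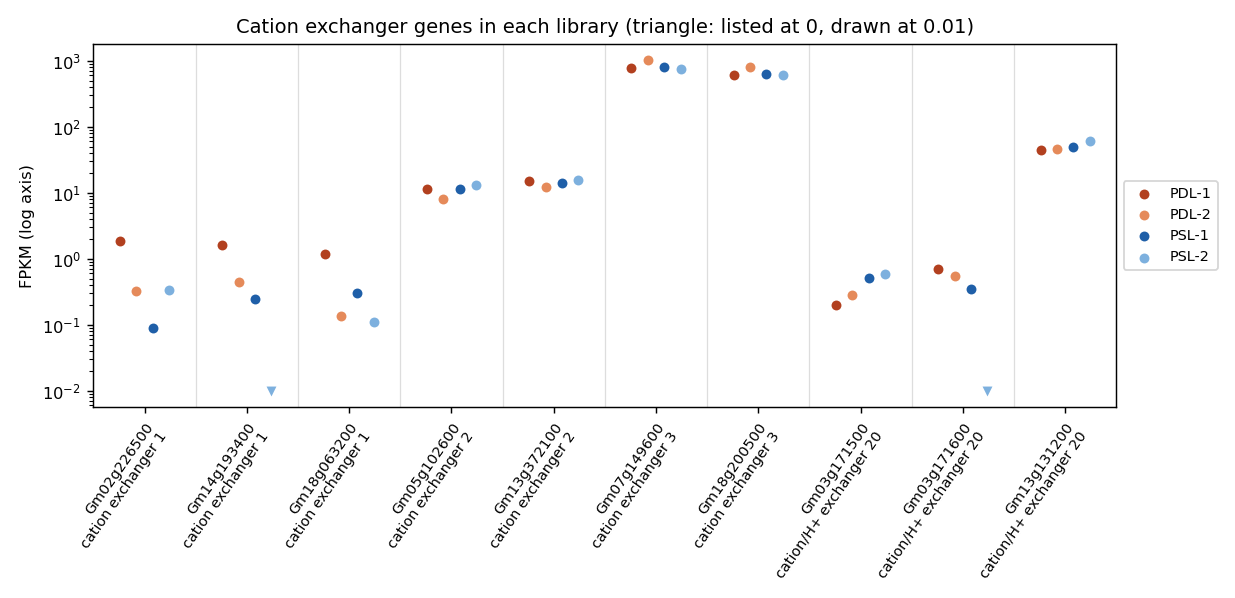
FPKM in each library, on a log axis, of the cation exchanger 1 and 2 genes, the cation exchanger 3 genes above 100 FPKM and the cation/H+ exchanger 20 genes. The 3 cation exchanger 1 genes are highest in PDL-1, at 1.83, 1.63 and 1.17 FPKM, and triangles mark libraries listed at 0.

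Sodium/proton exchangers overlapped between the groups in every gene tested. Of the 7 genes, 5 were tested, 0 were called in limma (0 had an unadjusted p under 0.05), and the median log2 fold change was 0.04. Sodium hydrogen exchanger 2 in Arabidopsis loads potassium and sodium into the vacuole, and Gm10g158700 of that description had 22.4 and 22.9 FPKM in PDL, against 21.4 and 22.8 FPKM in PSL, with a 95% interval of −0.26 to 0.33. Its relative Gm20g229900 had 10.9 and 13.4 FPKM in PDL, against 13.1 and 14.8 FPKM in PSL. The Na+/H+ antiporter 6 genes, of an endosomal type, had 9.9 and 8.27 FPKM in PDL, against 8.27 and 8.62 FPKM in PSL, for Gm15g124100 and 8.1 and 6.69 FPKM in PDL, against 7.55 and 9.33 FPKM in PSL, for Gm09g018200. The third, Gm07g270400, was low with 0.511 and 0.529 FPKM in PDL, against 0.759 and 0.185 FPKM in PSL, where PSL-2 stood apart from PSL-1.

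K+ efflux antiporters were all above PSL in their fitted values, by small amounts. All 12 genes were tested and all 12 had a positive log2 fold change, with a median of 0.29 and a range of 0.03 to 0.81. Both PDL libraries were above both PSL libraries in 10 of the 12 genes, against 20.2% of all loci tested. None was called, and 2 had an unadjusted p under 0.05, against 8.93% of all loci tested. The class summed to 278 and 245 FPKM in PDL, against 200.4 and 213 FPKM in PSL. These proteins exchange potassium for protons, in Arabidopsis at the chloroplast envelope and thylakoid for isoforms up to 3 and in endomembranes for the others.

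The thylakoid-type genes, described as K+ efflux antiporter 3, were the most abundant. Gm07g184800 (chromosome 7, bases 35229496 to 35240000 of Gmax2.0) had 125 and 107 FPKM in PDL, against 89.9 and 94.2 FPKM in PSL, with a difference of 0.33 on the log2 scale (SE 0.12, limma adjusted p = 0.561). Gm08g064600 (chromosome 8, bases 4943360 to 4953471 of Gmax2.0) had 73.6 and 70.5 FPKM in PDL, against 57.6 and 61.1 FPKM in PSL, with a difference of 0.28 on the log2 scale (SE 0.10, limma adjusted p = 0.559). In Gm08g064600 the replicates were closer to each other than to the other group, while in Gm07g184800 PDL-2 was nearer to PSL than to PDL-1.

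The 4 genes of K+ efflux antiporter 2 differed more among themselves. Gm07g073700 (chromosome 7, bases 6705868 to 6716749 of Gmax2.0) had 11.5 and 9.52 FPKM in PDL, against 5.22 and 6.71 FPKM in PSL, with a difference of 0.81 on the log2 scale (SE 0.20, limma adjusted p = 0.502) and a 95% interval of 0.28 to 1.34. Gm03g014000 had 32.1 and 22.5 FPKM in PDL, against 15.8 and 20.2 FPKM in PSL, with a difference of 0.59 on the log2 scale (SE 0.24, limma adjusted p = 0.574). Their 2 sister genes were nearer to even, and were described after their values were seen. Gm09g262000 had 8.56 and 7.72 FPKM in PDL, against 7.6 and 6.93 FPKM in PSL, and Gm18g230100 had 6.19 and 6.02 FPKM in PDL, against 5.94 and 5.65 FPKM in PSL.

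The endomembrane-type genes lay between 0.03 and 0.47 on the log2 scale. The pair of K+ efflux antiporter 5 genes summed to 14.5 and 14.1 FPKM in PDL, against 11.2 and 12.2 FPKM in PSL, that of antiporter 6 to 5.31 and 5.25 FPKM in PDL, against 5.24 and 4.81 FPKM in PSL, and that of antiporter 4 to 2.01 and 1.98 FPKM in PDL, against 1.98 and 1.13 FPKM in PSL. Only in Gm08g029300 and Gm14g093900 of the 12 genes did the groups overlap. Leaving out 1 library gave class medians of 0.24 to 0.31, with all 12 genes positive except without PSL-2, when 10 were.

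Transcripts of leaf mesophyll lay on the same side. Of 39 loci for light-harvesting proteins and the small subunit of Rubisco, 37 were tested, 34 were above PSL in both PDL libraries (against 20.2% of all loci tested) and 0 were called, with a median log2 fold change of 0.29. They summed to 152983 and 155309 FPKM in PDL, against 120219 and 130729 FPKM in PSL, and 2 of the 39 were near 0, with a mean under 0.3 FPKM. The part of this shift in the values of the K+ efflux antiporters was not tested.

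**Figure D5:**
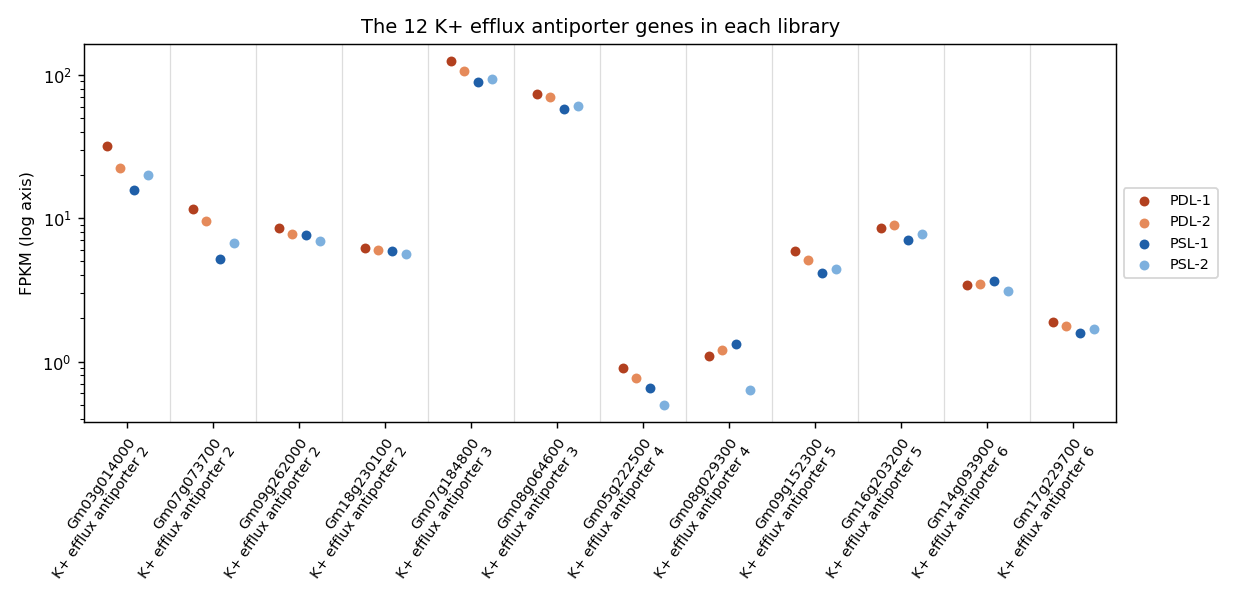
FPKM of the 12 K+ efflux antiporter genes in each library, on a log axis. PDL (red) lies above PSL (blue) in 10 of the 12 genes, from Gm07g184800 at 125 FPKM in PDL-1 to Gm05g222500 at 0.908 FPKM in PDL-1.

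K+ uptake transporters were the largest class and were balanced in direction. Of the 35 genes, 29 were tested, 0 were called and 2 had an unadjusted p under 0.05, with 15 positive and 14 negative values, a median log2 fold change of 0.00 and a range of −0.59 to 0.61. The class summed to 241 and 248 FPKM in PDL, against 253 and 252 FPKM in PSL. The KUP/HAK/KT carriers bring potassium into cells with protons, and the 3 most abundant were close between the groups. Gm08g288400, of the potassium transporter family, had 28.2 and 26.8 FPKM in PDL, against 26.7 and 28 FPKM in PSL, with a 95% interval of −0.28 to 0.30. Gm09g052700 (K+ uptake permease 11) had 26.9 and 28.2 FPKM in PDL, against 25.7 and 26.5 FPKM in PSL, and Gm15g159000 (K+ uptake permease 10) had 19 and 21.6 FPKM in PDL, against 20.6 and 22.6 FPKM in PSL.

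Among the carriers, potassium transporter 2 was on the high side in both genes. Gm04g221600 (chromosome 4, bases 49239255 to 49243960 of Gmax2.0), described after its values were seen, had 11 and 12 FPKM in PDL, against 9.17 and 8.72 FPKM in PSL, with a difference of 0.36 on the log2 scale (SE 0.12, limma adjusted p = 0.547) and an unadjusted p of 0.0403. Gm06g143800 had 0.587 and 0.638 FPKM in PDL, against 0.455 and 0.29 FPKM in PSL, at a low level and with an SE of 0.51. Gm18g136500 (K+ uptake permease 6) had 0.506 and 0.542 FPKM in PDL, against 0.318 and 0.321 FPKM in PSL. On the low side, Gm08g091900 (potassium transporter 1) had 0.633 and 0.536 FPKM in PDL, against 0.762 and 1.13 FPKM in PSL, with a difference of −0.59 on the log2 scale (SE 0.40, limma adjusted p = 0.710).

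The K+ uptake transporter 3 genes lay below PSL in both libraries. Gm19g105900 had 15.8 and 16.5 FPKM in PDL, against 21.6 and 16.8 FPKM in PSL, with PSL-1 well above PSL-2, and Gm16g046200 had 14.4 and 16 FPKM in PDL, against 17.5 and 17.2 FPKM in PSL. Their log2 fold changes were −0.24 and −0.19 (SE 0.16 and 0.12). The 4 genes of K+ uptake permease 7 summed to 32.8 and 32.9 FPKM in PDL, against 33.1 and 33.5 FPKM in PSL, and the 3 of permease 11 to 40.6 and 41.5 FPKM in PDL, against 39.97 and 40.6 FPKM in PSL.

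Some descriptions in this class are names of Arabidopsis channels. Potassium transport 2/3 names AKT2/3, a channel of the phloem that lets potassium pass in either direction, and K+ transporter 1 names AKT1, a channel for potassium uptake into roots. Gm12g170500, described as potassium transport 2/3 (chromosome 12, bases 32539746 to 32546578 of Gmax2.0), had 13.5 and 15.1 FPKM in PDL, against 19.2 and 20.5 FPKM in PSL, with a difference of −0.47 on the log2 scale (SE 0.12, limma adjusted p = 0.515), an unadjusted p of 0.0169 and a 95% interval of −0.81 to −0.14. Gm08g187600, the other gene of that description, had 3.05 and 3.03 FPKM in PDL, against 3.82 and 3.79 FPKM in PSL. In both genes PDL lay wholly below PSL, but neither reached a log2 fold change of −1. The 4 genes of K+ transporter 1 summed to 5.16 and 4.49 FPKM in PDL, against 4.06 and 4.63 FPKM in PSL.

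Carriers that serve roots or sodium transport were low in these leaves. The high affinity K+ transporter 5 gene Gm19g263100, whose Arabidopsis namesake takes up potassium in starved roots, had 0.0578 and 0.185 FPKM in PDL, against 0.0225 and 0.0571 FPKM in PSL, and was not tested. Of the 3 high-affinity K+ transporter 1 genes, whose namesake carries sodium, only Gm06g271600 was tested, with 1.57 and 0.666 FPKM in PDL, against 0.782 and 0.726 FPKM in PSL. The highest level of these 4 genes in any library was 1.57 FPKM.

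K+ channels were likewise close in both groups. Of the 18 genes, 13 were tested and 0 were called in limma (0 had an unadjusted p under 0.05), with a median log2 fold change of −0.06 and a range of −0.30 to 0.75. The class summed to 122 and 129.7 FPKM in PDL, against 121 and 132 FPKM in PSL. The potassium channel beta subunit genes, whose products bind the pore-forming proteins, had 23.6 and 21 FPKM in PDL, against 16.2 and 19.9 FPKM in PSL, for Gm10g124800 and 20.4 and 20.7 FPKM in PDL, against 20.9 and 23.9 FPKM in PSL, for Gm20g077200. Gm05g089700 had 16.7 and 17.9 FPKM in PDL, against 19.2 and 22.6 FPKM in PSL, but its description (tetramerisation domain with pentapeptide repeats) names a domain shared with channels and not a channel.

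Genes described as potassium channel in Arabidopsis thaliana 1 correspond to KAT1, which lets potassium into guard cells when stomata open. Gm08g232100 overlapped between the groups, with 14.1 and 17 FPKM in PDL, against 13.9 and 17.3 FPKM in PSL. Gm15g094600 had 5.88 and 5.85 FPKM in PDL, against 2.58 and 4.59 FPKM in PSL, with a difference of 0.75 on the log2 scale (SE 0.31, limma adjusted p = 0.580) and a 95% interval of −0.09 to 1.59. The third, Gm13g217800, stayed under 0.3 FPKM. Guard cell genes as a list (15 loci, 3 of them these KAT1 genes) had a median log2 fold change of 0.27 over 10 tested and summed to 88.7 and 98.2 FPKM in PDL, against 73.4 and 77.7 FPKM in PSL. Both loci of the list that were called higher (against 1.14% of all loci tested) are described as stomagen, a peptide that mesophyll secretes and that acts on the epidermis. The stomagen locus Gm18g152800 was listed at 0 in both PSL libraries, so it passed the filter only through PDL. Without the stomagen loci the list had a median of 0.24 over 8 tested, 0 called, and summed to 79.1 and 85.2 FPKM in PDL, against 69 and 74.1 FPKM in PSL. The part of the guard cell list in the value of Gm15g094600 was not tested.

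Outward channels release potassium. The stelar K+ outward rectifier, which in Arabidopsis loads potassium into the root xylem, was represented by Gm02g243400 with 5.54 and 12 FPKM in PDL, against 9.99 and 4.15 FPKM in PSL, and by Gm14g212500 with 7.97 and 8.4 FPKM in PDL, against 11.1 and 9.14 FPKM in PSL. In Gm02g243400 the replicates of each group differed by more than the groups did, since PDL-2 and PSL-1 were high and the other libraries low. Xylem loci (38 laccases, 18 of them under a mean of 0.3 FPKM) varied between replicates too, at 49.3 and 19.4 FPKM in PDL, against 24.6 and 42.9 FPKM in PSL summed. Their sum was high in PDL-1 and PSL-2, the reverse of the order in Gm02g243400. The part of xylem in the value of Gm02g243400 was not tested. The tandem-pore vacuolar channels, described as outward rectifying potassium channel or as Ca2+ activated outward rectifying K+ channels, were led by Gm17g006800 with 8.88 and 8.02 FPKM in PDL, against 8.91 and 9.12 FPKM in PSL, and Gm19g221000 with 8.16 and 7.57 FPKM in PDL, against 8.03 and 9.02 FPKM in PSL.

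Cyclic nucleotide gated channels, cation channels outside the rule that also pass potassium, gave 28 loci. Of these, 21 were tested and 0 were called in limma, while 4 had an unadjusted p under 0.05, against 8.93% of all loci tested. The groups did not overlap in 12 of the 21 (5 higher and 7 lower in PDL), against 41.3% of all loci tested. The median log2 fold change was 0.05. The most abundant, Gm08g241600, had 86 and 103 FPKM in PDL, against 67.7 and 54.8 FPKM in PSL, with a difference of 0.63 on the log2 scale (SE 0.17, limma adjusted p = 0.521). Gm19g255300 (cyclic nucleotide gated channel 1) lay the other way, with 16.6 and 13.2 FPKM in PDL, against 20.6 and 23 FPKM in PSL, and a difference of −0.55 on the log2 scale (SE 0.16, limma adjusted p = 0.527). Root loci, a list of which several members are also expressed in leaves, had a median log2 fold change of −0.06 over 10 tested.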

How the data were processed

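FPKM of 39505 loci were deposited by the authors for 4 libraries, with pooled FPKM per group. The authors filtered paired-end reads (FASTX-toolkit, FastQC), mapped them to Gmax2.0 with TopHat and Bowtie2, and obtained FPKM by Cufflinks and Cuffdiff; versions are not given in the sources used here. The authors' fold changes, test statistics, p-values and q-values were not used, nor were pooled values.

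Members were rows whose description matched the words given, without a comma in the gene name (3 merged loci left out). The members and lists were chosen with earlier results of these data known. Loci with a mean of at least 0.3 FPKM (32686) entered a limma fit (version 3.58.1, R 4.3.3) of log2(FPKM + 0.1), eBayes with a mean-variance trend, PDL against PSL, no covariate, Benjamini-Hochberg adjustment over all loci tested. The fit was also run on simulated data with large added differences, which says nothing about differences as small as those of most members. Other computing used Python 3.11.15, numpy 2.4.6, pandas 2.3.3 and matplotlib 3.10.9.

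Genes named were called members, the 3 most abundant of each class, and its 2 largest rises and 2 largest falls; others were chosen after their values were seen, as were examples from lists outside the rule. Read depth per locus is unknown. In loci under 0.1 FPKM in both libraries compared, the commonest log2 ratio to PSL-1 was 0.30 to 0.40 in PDL-1, 0.00 to 0.10 in PDL-2 and 0.30 to 0.40 in PSL-2, higher in PDL-1 and PSL-2 than in PDL-2. Alternatives were pseudocounts of 1 and 0.01, a filter at 1 FPKM or none, quantile normalization, no trend, a replicate block, leaving out each library, and loci above 0 in all 4 libraries. The RefSeq gene table matched 0 of 149 members by name, and no sequence is shown.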

Additional observations from a re-analysis of the deposited data

How the results depend on the processing

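The count of loci called (663) was 365 with a pseudocount of 1, 1041 with no filter on low values, and 1066 to 1407 when 1 library was left out. The count of members called (1) was 0 with a pseudocount of 1, 2 with the replicate block, and 0 to 3 when 1 library was left out (0 without PDL-1, 3 without PDL-2, 2 if either PSL library was omitted). The count of loci at a limma adjusted p under 0.05 (19) was 0 to 31 over the settings, and 0 members reached it in any of them. The labels give both groups the replicate numbers 1 and 2 but no shared origin, and same-numbered libraries deviated with a correlation of −0.079 across loci tested. In the fit with the replicate block 662 loci were called, 0 of them at a limma adjusted p under 0.05, against 19 without it. The member it added was Gm14g193400 (log2 fold change 2.39, limma adjusted p = 0.849). The median log2 fold change of the members stayed between −0.018 and 0.039. Members without overlap were 50 with a filter at 1 FPKM, 65 with no filter and 55 over loci above 0 in all 4 libraries. The number of members tested changed with these settings, and the share of all loci without overlap was not computed under them. These counts therefore cannot be set against a background. Of the members named by level or largest change, Gm03g171500 was newly called without PDL-2 (−1.13). Gm03g171600 and Gm07g270400 were so without PSL-1 (2.84 and 1.12), and Gm15g094600 without PSL-2 (1.16). Other members called in these fits are not listed. The medians of K+ efflux antiporters, V-type ATPase subunits and cation exchanger 1 genes under the same settings were added after the values were seen. With 1 library left out, the lone library of a group is assumed to vary like the other group. The 25 members under a mean of 0.3 FPKM were not tested, and no difference can be read from them.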

Other observations

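Loci merged from several genes lay outside the rule, but 3 of them carry a matching description. The locus of Gm08g082200 and Gm08g082300 (Ca2+ activated outward rectifying K+ channel 6) had 4.19 and 4.09 FPKM in PDL, against 5.34 and 4.69 FPKM in PSL. That of Gm10g119600 and Gm10g119700 (potassium transporter 1 with a microtubule associated protein) had 3.78 and 2.23 FPKM in PDL, against 3.06 and 1.86 FPKM in PSL. That of Gm02g059800 and Gm02g059900 (vacuolar ATP synthase subunit H with a LIM domain protein) had 34.3 and 35.8 FPKM in PDL, against 35.8 and 38.6 FPKM in PSL. None of the 3 was called, and their log2 fold changes were −0.27, 0.28 and −0.09. Each has a single FPKM for all of its genes.

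The list used for guard cells held loci outside the set that did not lie together. Both stomagen loci were called higher in PDL in limma, and stomagen is secreted by mesophyll. Gm08g345100 had 8.23 and 9.55 FPKM in PDL, against 4.41 and 3.59 FPKM in PSL, and Gm18g152800 had 1.32 and 3.45 FPKM in PDL, with both PSL libraries listed at 0. The guard cell regulator MYB60 was above PSL without being called, in Gm03g006600 with 14.2 and 13.8 FPKM in PDL, against 12.2 and 11.3 FPKM in PSL, and in Gm19g119300 with 8.73 and 8.98 FPKM in PDL, against 8.04 and 6.54 FPKM in PSL.

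Of the SLAC1 homologues, relatives of the guard cell anion channel, 3 of the 4 tested overlapped between the groups. Gm06g307500 had 1.62 and 2.72 FPKM in PDL, against 1.76 and 2.83 FPKM in PSL, Gm17g011600 had 16.3 and 12.4 FPKM in PDL, against 12.4 and 14.5 FPKM in PSL, and Gm16g173500 had 16.4 and 23.2 FPKM in PDL, against 17.3 and 15.9 FPKM in PSL. Gm07g262500 did not overlap, with 1.17 and 0.692 FPKM in PDL, against 0.241 and 0.691 FPKM in PSL. None of the 4 was called. The median of the list without stomagen was computed after the values were seen.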
